A study of Mus musculus with 2 samples.

Results

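RNase P and RNase MRP are related ribonucleoprotein enzymes, and the data on them are the reads over 10 genes of the 37310 in GENCODE M1, chosen by name. These are the genes of the catalytic RNAs, *Rmrp* of RNase MRP (listed as RNase_MRP, ENSMUSG00000088088.1) and *Rpph1* of RNase P (listed as AC027184.1, ENSMUSG00000092837.1), and of 8 protein subunits, *Pop1*, *Pop4*, *Pop5*, *Pop7*, *Rpp25*, *Rpp30*, *Rpp38* and *Rpp40*. Nonpolyadenylated (NPA) RNA was sequenced from mouse embryonic stem cells of the R1 line (ESCs), grown with LIF on mitotically inactivated embryonic fibroblasts, and from cells derived from them and called neuronal progenitor cells (NPCs). For the latter, LIF was withdrawn, the cells spent 4 days as embryoid bodies, and they were then plated on poly-L-ornithine and fibronectin in a defined medium and collected on day 7. Neither cell type carried a described genetic change, and both come from 1 line. There was 1 library per cell type, so there is no replicate check, no test between the cell types was possible, and every ratio compares these libraries.

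RNase P removes the 5′ leader from precursor tRNAs. RNase MRP cuts the precursor of ribosomal RNA within its first internal spacer, on the way to the 5.8S RNA. Each enzyme is built around 1 noncoding RNA, transcribed by RNA polymerase III from promoter elements that lie before the RNA, and most of the protein subunits are shared by both. Neither RNA is polyadenylated, so both belong to the fraction that was sequenced, while the subunit mRNAs are polyadenylated and are seen only as far as they escaped the removal of poly(A) RNA.

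The deposited lists held 4271306 reads in ESCs and 4399729 in NPCs. Only reads in the direction of the gene were counted. Values are also scaled to 1000000 reads of the library (RPM), and all intervals are 95% intervals that cover counting error only. The labels were checked against markers. All 6 ESC markers, among them *Pou5f1*, were lower in NPCs, and their sum went from 1918 to 515 RPM. Of the 6 neural progenitor markers 4 had at least 10 reads, 2 of them lower and 2 higher, and the sum was 64.4 RPM in ESCs and 64.1 in NPCs. *Sox1* is not in this annotation, and *Fabp7* had 0 and 2 reads. All 6 markers of extraembryonic endoderm, among them *Gata4*, were higher in NPCs, and their sum went from 588 to 10671 RPM. The sum of 6 fibroblast markers was 42.1 and 57.3 RPM, with *Lum* at 0 reads in both. The other 5 had at least 10 reads, 1 of them lower and 4 higher. *Thy1* went from 79 to 12 reads and *Col1a2* from 51 to 165. The NPC library thus did not stand out by neural markers, and the part of these other cells in any ratio given here was not tested. In RNA from whole cultures, fewer cells of a type and less RNA per cell cannot be told apart.

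Both RNAs lie in 1 exon on the minus strand in mm9, *Rmrp* at chr4:43505660-43505930 (271 bases) and *Rpph1* at chr14:51427124-51427442 (319 bases). The sequences are shown because the change between the libraries differed along them. They are read from mm9 in the direction of the RNA, base 1 is the annotated 5′ base, and capitals mark the first 6 bases of each place where at least 5% of the reads started in either library. Capitals of neighbouring places run together. For *Rpph1* bases 81 to 319 are given, chr14:51427124-51427362.
Rmrp: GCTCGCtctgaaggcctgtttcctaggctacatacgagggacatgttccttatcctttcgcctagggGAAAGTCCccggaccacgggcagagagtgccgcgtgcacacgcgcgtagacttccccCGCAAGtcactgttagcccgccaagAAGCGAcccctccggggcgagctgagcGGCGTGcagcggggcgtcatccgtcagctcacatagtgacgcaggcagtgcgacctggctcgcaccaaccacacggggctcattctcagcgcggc
Rpph1: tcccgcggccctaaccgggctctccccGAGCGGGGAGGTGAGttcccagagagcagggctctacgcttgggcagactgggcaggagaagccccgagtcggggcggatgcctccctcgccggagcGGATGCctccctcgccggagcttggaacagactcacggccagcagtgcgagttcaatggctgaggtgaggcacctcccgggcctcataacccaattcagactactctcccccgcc
In *Rmrp* the marked starts are bases 1, 68, 70, 125, 150 and 177, and in *Rpph1* bases 108, 109, 115, 117 and 205. The 5% minimum was chosen after the profiles had been seen.

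Both RNAs had fewer reads in the NPC library, *Rpph1* far fewer. The ESC count of *Rmrp* was 36747 (exact Poisson interval 36372 to 37125), or 8603 RPM. In NPCs it had 20484 (20204 to 20766), or 4656 RPM. The NPC library was thus the lower, at 0.541 times the ESC level (conditional binomial interval 0.532 to 0.551). The ESC count of *Rpph1* was 28219 (27891 to 28550), or 6607 RPM. In NPCs it had 4156 (4031 to 4284), or 945 RPM, which is 0.143 times the ESC level (0.138 to 0.148). As log2 ratios of NPC to ESC, *Rmrp* stood at -0.89 and *Rpph1* at -2.81. Over the 14859 genes with at least 10 reads in the libraries together the median was 0.34, and relative to that median gene the RNAs stood at -1.22 and -3.14. Of these genes 12.8% were more than 2-fold lower in NPCs and 24.6% more than 2-fold higher. *Rpph1* was among the first and *Rmrp* was not, although *Rmrp* passes 2-fold when the libraries are scaled by the median of ratios (-1.23).

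The RNAs were among the most read genes of the libraries. In ESCs *Rmrp* took 0.860% of all reads, and in NPCs 0.466%, which is rank 5 and rank 6 among the genes. *Rpph1* held 0.661% and 0.0945%, rank 13 and rank 89. Neither had a read on the opposite strand in either library, which allows up to 3 reads or 0.702 RPM in ESCs and 0.682 RPM in NPCs. Classes of abundant RNA as a whole took less of the NPC library. Reads outside *Rmrp*, *Rpph1* and the snoRNA, snRNA and histone genes amounted to 73.7% in ESCs and 88.4% in NPCs. With the libraries scaled by those outside reads alone, the log2 ratio of *Rmrp* was -1.15 and that of *Rpph1* -3.07.

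The balance of the RNAs needs no scaling between libraries. ESCs had 1.30 reads of *Rmrp* for each read of *Rpph1* (1.28 to 1.32), and NPCs had 4.93 (4.77 to 5.10). Per base of RNA the level of *Rmrp* was 1.53 times that of *Rpph1* in ESCs and between 5.61 and 6.00 times in NPCs (interval). The intervals of the libraries lie apart, but they cover counting error in 1 library each. When each start was counted once, with the starts of shortened *Rpph1* placements recovered from their sequences, the ratio was 1.56 in both libraries, and the log2 ratio of NPC to ESC was -0.66 for both RNAs. That count can take at most 1 read per base, in RNAs of 271 and 319 bases. With the starts as deposited, where shortened placements share 1 start, the ratios were 2.21 and 2.50 and the log2 ratio of *Rpph1* was -0.84. The log2 ratios with each start once are scaled by the distinct deposited starts of each library, 1531216 in ESCs and 1848069 in NPCs, not by its reads. Repeated fragments from amplification cannot be told from abundant RNA, as the reads carry no molecular identifiers.

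Reads of *Rmrp* started at few places, and the change between the libraries depended on the place. The RNA had been cut with RNase III before sequencing. For both RNAs, starts made by that cut were not told apart from ends present in the cells. At base 1, the annotated 5′ end, 9941 reads started in ESCs and 8939 in NPCs. That is 2327 and 2032 RPM, so the NPC level at this start was 0.873 of the ESC level (0.848 to 0.898). It was the most used start in both libraries, with 27.1% in ESCs (Clopper-Pearson interval 26.6 to 27.5%) and 43.6% in NPCs (43.0 to 44.3%). Base 177 was the only marked start of *Rmrp* with a higher level in NPCs. It had 3285 reads in ESCs and 5053 in NPCs, a ratio of 1.49 (1.43 to 1.56), and its share went from 8.94% to 24.7%.

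The marked starts between these were all lower in NPCs. Base 68 had 2134 and 557 reads (ratio 0.253, 0.230 to 0.278), and base 70 had 4721 and 1085 (0.223, 0.209 to 0.238). These starts lie 2 bases apart, and their intervals overlap. Base 125 had 6583 and 1163 reads (0.172, 0.161 to 0.183). Base 150 had 2292 and 108 reads (0.0457, 0.0374 to 0.0555), the lowest ratio among the marked starts of either RNA. Its share of the *Rmrp* reads went from 6.24% to 0.527%. All remaining starts together had 7791 and 3579 reads (0.446, 0.429 to 0.464). Among them were starts beside base 177 with a higher level in NPCs, such as base 175 with 408 reads in ESCs and 703 in NPCs.

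No single start carried the lower level of *Rmrp*, although its size moved with each. Without the reads at base 1 the log2 ratio was -1.26, without base 177 it was -1.16, and without base 125 it was -0.69. Starts before the midpoint of the RNA made up 79.2% in ESCs and 66.1% in NPCs. ESC reads used 190 distinct bases as starts and NPC reads 145, and only 9 reads in each library began before base 1. Every placement on *Rmrp* spanned the full 48 nt, and 98.9% (ESC) and 98.7% (NPC) matched mm9 without a mismatch. Those sequences each occur once in mm9.

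**Figure D1:**
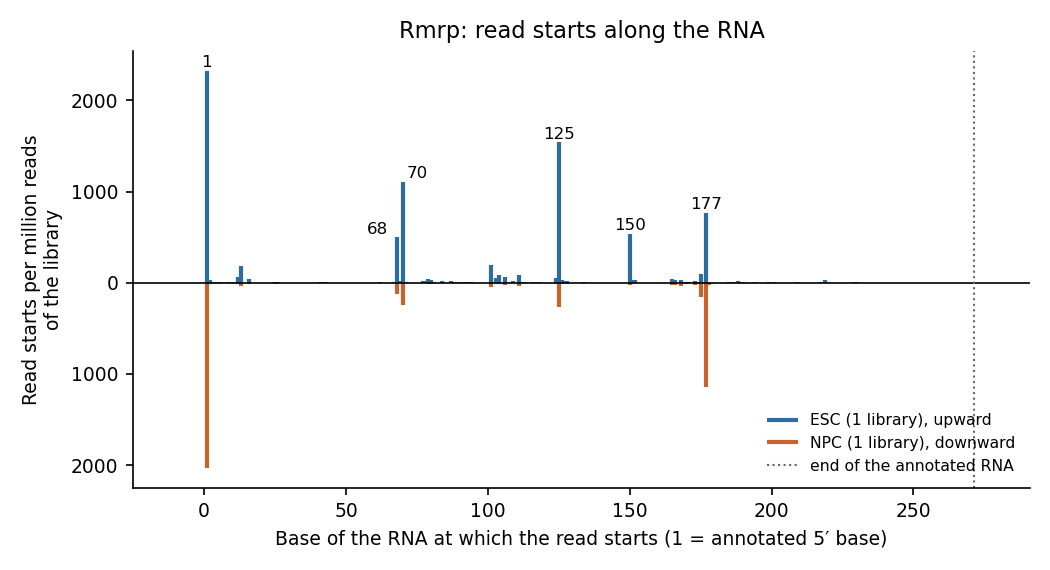
Read starts along *Rmrp* (horizontal axis, base of the RNA) in RPM (vertical axis), with the ESC library drawn upward, the NPC library downward and the marked starts numbered. Base 1 is nearly as high in NPCs as in ESCs (2032 against 2327 RPM) and base 177 is higher, while the marked starts between them are much lower in NPCs.

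*Rpph1* showed another arrangement, with reads starting inside the RNA and hardly any at its 5′ end. Base 108 was the most used start in both libraries, with 16643 reads in ESCs and 1467 in NPCs. That is 59.0% of the *Rpph1* reads in ESCs (58.4 to 59.6%) and 35.3% in NPCs (33.8 to 36.8%). Its level went from 3896 to 333 RPM, a ratio of 0.0856 (0.0811 to 0.0903). At base 1 only 3 reads started in ESCs and 0 in NPCs, which allows a share of up to 0.0887% of the *Rpph1* reads in NPCs (Clopper-Pearson upper bound). The first base with at least 10 starts was base 80 in ESCs and base 85 in NPCs.

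All marked starts of *Rpph1* were lower in NPCs, by different amounts. Base 205 had 3692 reads in ESCs and 291 in NPCs (ratio 0.0765, 0.0677 to 0.0862), with an interval that overlaps that of base 108. Base 109, next to the main start, had 917 and 349 reads (0.369, 0.326 to 0.418). Base 115 had 856 and 325 (0.369, 0.323 to 0.419), and base 117 had 670 and 268 (0.388, 0.336 to 0.448). The intervals of the last 3 overlap one another and lie above those of bases 108 and 205. Other starts together had 5441 and 1456 reads (0.260, 0.245 to 0.275). Among them were starts with a higher level in NPCs, such as base 222 with 63 reads in ESCs and 123 in NPCs. Base 223, next to it, had 58 and 135. Without the reads at base 108 the log2 ratio of *Rpph1* was -2.15, so it stayed more than 2-fold lower.

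**Figure D2:**
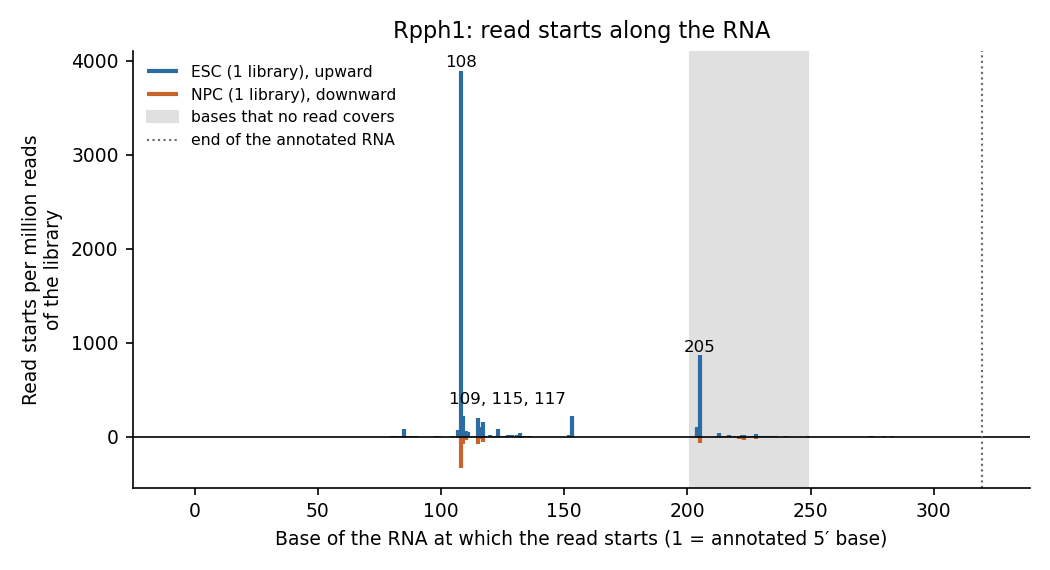
Read starts along *Rpph1* (horizontal axis, base of the RNA) in RPM (vertical axis), with ESCs upward and NPCs downward. Base 108 rises to 3896 RPM in ESCs against 333 RPM in NPCs, and the grey band marks bases 201 to 249, which no deposited placement covers. The bars inside it are starts recovered from the sequences of shortened placements.

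The deposited reads leave a stretch of *Rpph1* empty. Bases 201 to 249, or 49 bases at chr14:51427194-51427242, were covered by 0 placements in both libraries, although the RNA was read heavily on either side. The stretch is shown with capitals where it holds the end of a tandem repeat, a unit of 21 bases that stands at bases 182 to 202 and again at 203 to 223.
Rpph1 bases 201 to 249: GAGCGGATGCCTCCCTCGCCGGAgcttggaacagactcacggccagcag
Placements that reached into the stretch were listed shortened, 5076 in ESCs (18.0% of the *Rpph1* reads) and 976 in NPCs (23.5%), and their true start was recovered from the full sequence of the read. Of these, 5068 in ESCs and 972 in NPCs started at bases 203 to 249, base 205 included. Starts at bases 154 to 200, from which a read of 48 nt runs into the stretch at its other end, numbered 8 and 4. A read starting at base 201 or 202 would lie wholly inside it, and none was listed. The authors removed reads in regions of the Repeat Masker annotation, and whether this emptied the stretch was not tested, since those regions were not used here. With full-length placements alone the log2 ratio of *Rpph1* was -2.90, and the share of base 108 was then 71.9% (ESC) and 46.1% (NPC).

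**Figure D3:**
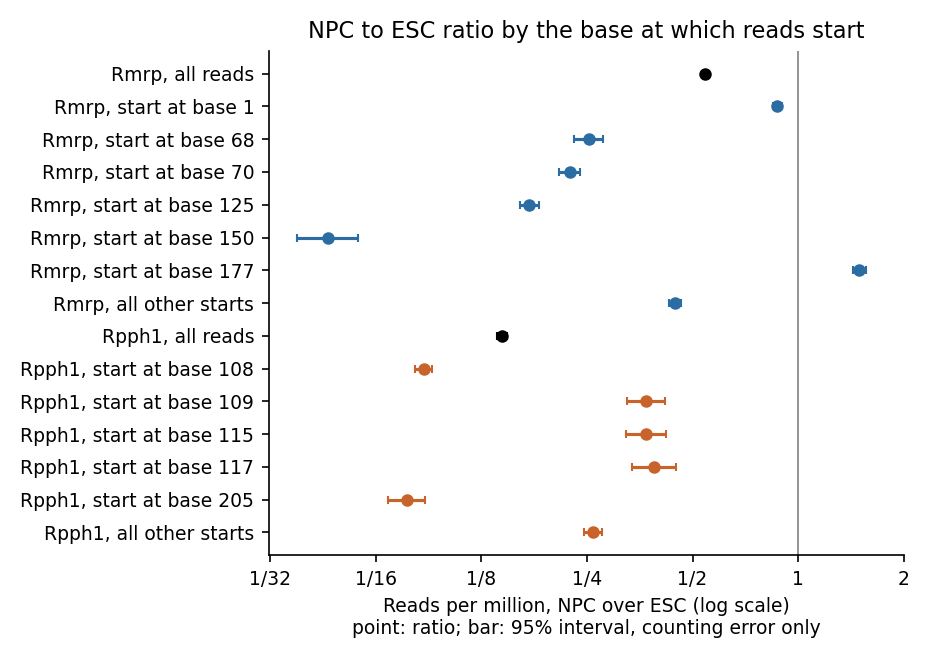
Ratio of NPC to ESC in RPM (horizontal axis, log scale) for all reads of each RNA and for reads by their start base (vertical axis). Points are ratios and bars are 95% intervals of counting error. The starts of *Rmrp* run from 0.0457 at base 150 to 1.49 at base 177, and those of *Rpph1* all lie below 1.

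The start profiles of both RNAs differed more between the libraries than those of most other small RNAs. The overlap of a pair of profiles is the share of starts at the same bases, 100% for identical profiles. It was 62.8% for *Rmrp* and 65.5% for *Rpph1*. Among 79 other small RNAs with at least 1000 reads in each library the median was 95.3%, the range 47.8 to 99.5%, and only 3 lay below each of the RNAs. Short RNAs offer fewer starts, and among the 33 of at least 130 bases the median was 85.1%, again with 3 below. The vault RNA, also made by RNA polymerase III, was among these 3, at 62.5%. All other RNAs compared are annotated as snoRNAs. A low overlap was thus not particular to *Rmrp* and *Rpph1*. Both *Rmrp* and *Rpph1* kept their most used start between the libraries, as did 74 of the 79. In ESCs the share at the most used start was 27.1% for *Rmrp* and 59.0% for *Rpph1*, beside a median of 75.0% in the others. In NPCs the order turned, with 43.6% for *Rmrp* and 35.3% for *Rpph1* beside a median of 73.1%.

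A small share of the reads ran past the annotated 3′ ends of the RNAs. The last 30 annotated bases and the 30 that follow are shown with the first run of at least 4 T in capitals, since RNA polymerase III ends transcription at such runs. They lie at chr4:43505630-43505689 and chr14:51427094-51427153.
Rmrp 3′ end: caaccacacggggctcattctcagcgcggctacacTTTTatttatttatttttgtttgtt
Rpph1 3′ end: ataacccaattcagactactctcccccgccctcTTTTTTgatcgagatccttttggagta
For *Rmrp* the run begins at base 277, 6 bases past the annotated end, and for *Rpph1* at base 323, 4 bases past it. A run of TTTT on the RNA strand lies within 10 bases before to 30 bases after the annotated end of 31.7% of all genes and of 15 of the 79 other small RNAs. Placements past the annotated end numbered 117 in ESCs and 41 in NPCs for *Rmrp*, and 56 and 6 for *Rpph1*. They made up 0.318% and 0.200% of the *Rmrp* reads, and 0.198% and 0.144% of the *Rpph1* reads. Those that reached into the T run numbered 52 and 12 for *Rmrp* and 30 and 5 for *Rpph1*. Those that went beyond it numbered 16 and 3 for *Rmrp* and 8 and 3 for *Rpph1*. A read spans 48 nt from its start, so its last base need not be the end of the RNA. The last base reached was 283 for *Rmrp* in both libraries, and 330 in ESCs and 329 in NPCs for *Rpph1*.

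Copies of the RNA genes took few reads. GENCODE M1 lists 18 further genes as RNaseP_nuc, of which 3 had reads, and 1 further RNase_MRP gene with 0 reads in both libraries. The copy at chr8:3803069-3803358 (ENSMUSG00000088025.1) had 155 reads in ESCs and 28 in NPCs. It matches *Rpph1* at 79.7% of its bases, by edit distance. Of its 183 reads 152 fit the copy better than *Rpph1*, 31 fit both equally and 0 fit *Rpph1* better. The other copies with reads had 2 reads each. The genes beside the RNAs were read little. *Ccdc107*, on the plus strand, overlaps *Rmrp* by 124 exon bases, in which it had 0 reads in both libraries, and 23 reads in ESCs and 13 in NPCs in all. *Parp2*, on the plus strand 178 bases from *Rpph1*, had 91 and 112 reads (ratio 1.19, 0.898 to 1.59).

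The noncoding genes whose ratio was nearest to that of each RNA were snoRNAs or counted snoRNA reads. The measure is the difference of log2 ratios over the pair of libraries, among 123 noncoding genes with at least 1000 ESC reads. Nearest to *Rmrp* were SNORD25 (-0.89), SNORA38 (-0.88) and *Gas5* (-0.90). The last is a host of snoRNAs, and 99.4% of its reads in ESCs and 99.0% in NPCs lay over 9 snoRNA genes inside it, so its value is that of the snoRNAs. Nearest to *Rpph1* were SNORA65 (-2.83), *Snora65* at another place (-2.84) and SNORA63 (ENSMUSG00000064880.1, -2.85). Of the 123 genes, 72 had a lower ratio than *Rmrp* and 7 a lower one than *Rpph1*. The minimum was set on ESC reads alone, so genes read mainly in NPCs were left out, and these ranks depend on that choice. The share of snoRNAs among the 123 genes was not counted. Of the 79 other small RNAs compared by their starts, all but the vault RNA are annotated as snoRNAs. That the nearest genes are snoRNAs is thus not a trait of *Rmrp* or *Rpph1*. With 1 ratio per gene, likeness here means only that the sizes match.

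The 8 protein subunit genes did not move with their RNAs as a group, and they rested on few reads. Together they had 392 exon reads in ESCs and 533 in NPCs, a ratio of 1.32 (1.16 to 1.51). All 8 had at least 10 reads in the libraries together. On the log2 scale with 1 read added, 3 were below 0 and 5 above, from -1.07 to 1.45, with a median of 0.44. The median over all genes was 0.34 and over the 12711 protein-coding genes 0.40, and 5 of the 8 lay above the median gene. More than 2-fold lower was 1 of 8, beside 12.8% of all genes, and more than 2-fold higher were 2 of 8, beside 24.6%. Scaled by the median of ratios, the median of the 8 was 0.10. With each start position counted once, in the library totals as well, it was -0.046. Its sign thus rested on the counting and on the totals used. On the RPKM scale, that is RPM per kilobase of exon, the subunits ranged from 2.29 to 9.73 in ESCs and from 1.08 to 21.3 in NPCs, against 31746 and 17180 for *Rmrp* and 20711 and 2961 for *Rpph1*.

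**Figure D4:**
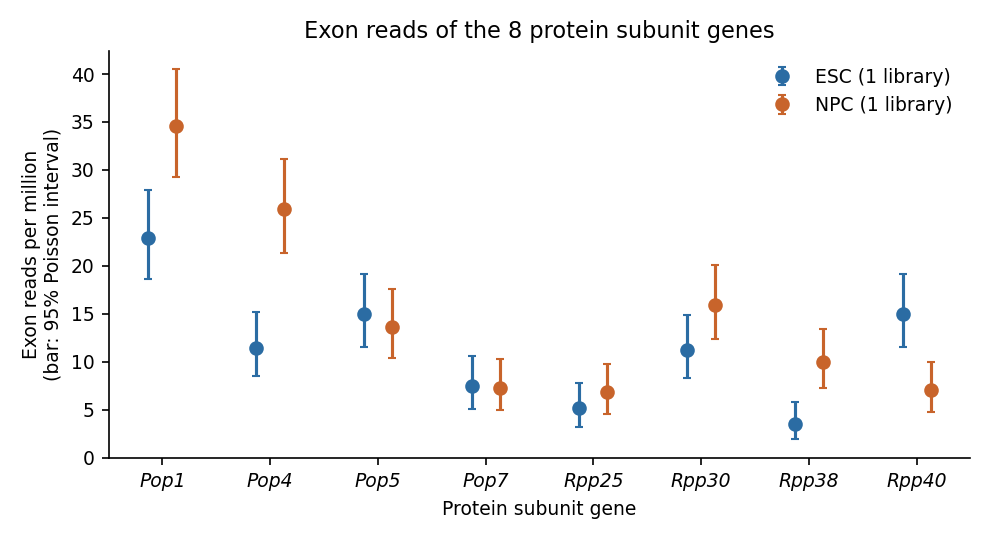
Exon reads in RPM (vertical axis) of the 8 protein subunit genes (horizontal axis) in the ESC and NPC libraries, with exact 95% Poisson intervals of counting error. *Pop1*, *Pop4* and *Rpp38* lie higher in NPCs and *Rpp40* lower, with intervals apart, and *Pop5*, *Pop7* and *Rpp25* overlap widely.

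*Pop1* encodes the largest subunit, which binds the RNA in both enzymes. It had 98 exon reads in ESCs (22.9 RPM) and 152 in NPCs (34.5 RPM), a ratio of 1.51 (1.16 to 1.96). *Pop4*, which encodes another RNA-binding subunit, had 49 reads in ESCs (11.5 RPM) and 114 in NPCs (25.9 RPM), a ratio of 2.26 (1.60 to 3.22). Both stood above the median gene, *Pop1* by 0.25 and *Pop4* by 0.82 on the log2 scale. The log2 interval of *Pop1*, 0.21 to 0.97, includes the median gene at 0.34, and that of *Pop4*, 0.68 to 1.69, does not.

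*Pop5* and *Rpp30* encode subunits that bind each other. *Pop5* had 64 and 60 reads, a ratio of 0.910 (0.629 to 1.32). *Rpp30* had 48 and 70 reads, a ratio of 1.42 (0.967 to 2.09). Neither difference exceeded the counting error. *Pop7* and *Rpp25* encode a pair of small proteins of the Alba family that bind the RNA together. *Pop7* had 32 reads in each library, a ratio of 0.971 (0.576 to 1.64), and *Rpp25* had 22 and 30, a ratio of 1.32 (0.739 to 2.41). Differences inside these intervals were not detectable at this depth.

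*Rpp38* encodes a subunit related to ribosomal proteins that bind kink-turns in RNA. It had 15 reads in ESCs (3.51 RPM) and 44 in NPCs (10.0 RPM), a ratio of 2.85 (1.55 to 5.51), the highest of the 8. *Rpp40* went the other way, with 64 reads in ESCs (15.0 RPM) and 31 in NPCs (7.05 RPM), a ratio of 0.470 (0.296 to 0.733). Repeated starts entered these ratios. Distinct starts in ESCs and NPCs numbered 13 and 23 for *Rpp38*, 35 and 26 for *Rpp40*, 76 and 100 for *Pop1*, and 40 and 68 for *Pop4*. Most reads of *Rpp40* lay in the first part of its merged exons. Of its exon reads, 58 of 64 in ESCs and 26 of 31 in NPCs touched coding bases. Where the coding bases lie along these exons was not examined, so a lean to the 5′ end of the mRNA cannot be read from this. Of the *Rpp40* reads that started in exons, 95.3% in ESCs and 93.5% in NPCs lay before the midpoint of its 6540 exon bases. For *Pop5* the shares were 87.7% and 69.5%, and for *Rpp30* 46.3% and 27.9%. Over all protein-coding genes with at least 10 reads the median share was 51.2% in ESCs and 48.4% in NPCs, and 5 of the 8 subunits lay above it in each library.

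Most subunit reads lay in exons. Reads in the introns were most frequent for *Pop1*, with 31 in ESCs and 48 in NPCs, and for *Rpp30*, with 33 and 39, while *Rpp40* had 2 and 6. *Pop7* and *Rpp25* have 1 exon each. Of the exon reads of *Pop1*, 95 of 98 in ESCs and 148 of 152 in NPCs touched coding bases, and of those of *Pop4*, 38 of 49 and 82 of 114. No exon of the 8 genes is shared with another gene on the same strand. Sequences found once in mm9 made up 95.9% (ESC) and 94.9% (NPC) of the subunit reads, and the others had no exact match.

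The 3 further subunit genes in the annotation pointed in no single direction either. *Rpp14* had 59 reads in ESCs and 121 in NPCs, a ratio of 1.99 (1.45 to 2.77). *Rpp21*, whose product is a subunit of RNase P, had 20 and 11 reads (0.534, 0.231 to 1.17). *Rpp25l*, a paralog of *Rpp25* listed as 2810432D09Rik, had 41 and 32 reads (0.758, 0.462 to 1.23). Mitochondria use another RNase P, built of proteins without an RNA, and its 3 genes lay between *Trmt10c* (listed as Rg9mtd1, 0.890, 0.659 to 1.20) and *Hsd17b10* (1.25, 0.764 to 2.07), all below the median gene.

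**Figure D5:**
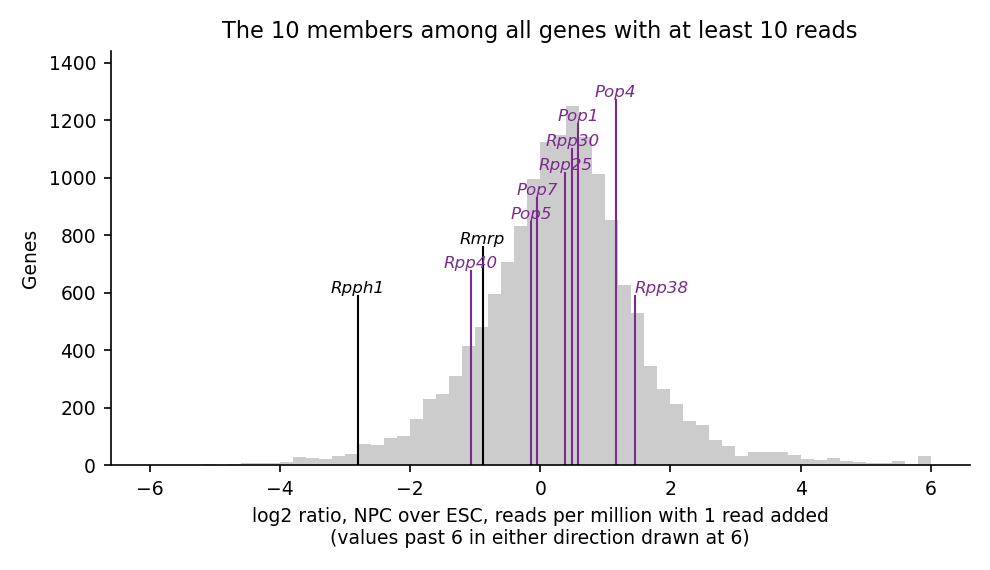
Number of genes (vertical axis) by log2 ratio of NPC to ESC with 1 read added (horizontal axis) over the 14859 genes with at least 10 reads, with lines at the 10 genes of RNase P and RNase MRP. *Rpph1* lies at -2.81 in the lower tail and *Rmrp* at -0.89, while the 8 protein subunits spread from -1.07 to 1.45.

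Genes that act around these enzymes leaned the way of all genes. Of all genes 5523 were lower in NPCs and 9336 higher, before any shift by the median. Of the 10 genes of tRNA 3′ end and intron processing 2 were lower and 8 higher, with a median of 0.64, and 8 lay above the median gene. They ran from *Clp1* (-0.18), an RNA kinase, to *Tsen34* (1.45), a subunit of the tRNA splicing endonuclease. Of the 8 genes of first internal spacer and 5.8S processing 1 was lower and 7 higher, with a median of 0.41, from *Nol12* (-0.41) to *Exosc10* (1.00), a nuclease of the nuclear exosome. Of these, 4 lay above the median gene and 4 below.

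The mRNA reads of RNA polymerase III, which makes *Rmrp* and *Rpph1*, did not follow them as a list. They are what escaped the removal of poly(A) RNA, and whether the polymerase itself changed was not tested. Of 11 genes of RNA polymerase III subunits 2 were lower and 9 higher, with a median of 0.37, and 6 lay above the median gene. The extremes were *Polr3gl*, with 14 and 5 reads (-1.36), and *Polr3k*, with 19 and 59 (1.54). As ratios their intervals were 0.0977 to 1.02, which includes 1, and 1.77 to 5.35. Of 10 factors for promoters of this kind, 2 were lower and 8 higher, with a median of 0.49, from *Zfp143* (-0.60) to *Snapc1* (1.26), a subunit of the complex that binds the proximal element. Of other RNAs made by this polymerase, 5 of the 9 names listed were found, 4 of them lower and 1 higher, with a median of -0.98. The lowest was 7SK, with 82 and 31 reads over all its copies (-1.42), and the highest was the vault RNA, with 1098 and 2576 reads (1.19), whose genes also carry promoter elements inside the RNA. The median is the value of U6atac, with 702 and 365 reads over 28 genes of that name. Counts of 7SK, U6, U6atac and Y RNA are uncertain, since these families have many copies and repeats were filtered out of the deposited lists. All 4 lower names are among these families.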

How the data were processed

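NPA RNA of ESCs (1 library) and NPCs (1 library) was sequenced strand-specifically. The authors depleted polyadenylated RNA with oligo(dT) in 3 rounds, took out ribosomal RNA once, fragmented 2 µg of RNA with RNase III, kept fragments of 150 to 250 bp, amplified for 15 cycles and sequenced 50 nt on a SOLiD 3. They aligned with Bowtie (version not given in the sources used here) to mm9, with a 45 nt seed and up to 2 mismatches in it, did not require unique placement, and filtered out mitochondrial, ribosomal and Repeat Masker reads. The deposited lists hold no counts but the position, strand and 48 nt sequence of each read.

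Reads overlapping merged exons of a GENCODE M1 gene by at least 1 base on its strand were counted, with 0-based starts shifted to 1-based, and scaled to RPM by library totals. Log2 ratios add 1 read over lists and all genes and none for *Rmrp*, *Rpph1* and the noncoding genes nearest to them. Start positions of shortened placements were recovered from their sequence, and exact matches of the sequences were sought over mm9, both strands. Counts have exact Poisson, shares Clopper-Pearson and ratios conditional binomial 95% intervals. Where no read was found, the limit given is 3 reads. No test between the cell types was made. All 10 genes, the 3 further subunits and both neighbours are named, each pathway list by its highest and lowest gene with at least 10 reads, and 3 nearest noncoding genes per RNA. Genes named only as members of marker lists, and the RNA polymerase III families named as uncertain, fall outside this rule. The members and lists were chosen with earlier results of these data known. Older symbols were matched through RefSeq synonyms. The ratio code was tested on simulated data. Tools were Python 3.11.15, NumPy 2.4.6, SciPy 1.17.1, pysam 0.24.0, numba 0.67.0 and matplotlib 3.10.9.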

Additional observations from a re-analysis of the deposited data

Results flagged for a closer look

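Reads on the strand opposite to a subunit gene enter no comparison above, and those over 3 reads are given here. Over the exons of *Pop5* there were 7 such reads in ESCs and 9 in NPCs. *Rnf10* lies on that strand there, but 0 of these reads overlapped its exons. *Rpp25* had 4 in ESCs and 0 in NPCs, with no annotated gene on that strand.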

How the results depend on the processing

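Both RNAs were lower in NPCs under every alternative run. The log2 ratio of *Rmrp* was -0.66 with each start position counted once, -1.23 scaled by the median of ratios over 12176 genes, -1.15 scaled by the reads outside abundant classes and -1.26 without its most used start. For *Rpph1* these values were -0.84, -3.15, -3.07 and -2.15, and -2.90 with full-length placements. With each start once the library totals were those of distinct deposited starts, and with full-length placements those of full-length placements. With each start once and the starts of shortened placements recovered, both RNAs stood at -0.66. That alternative and the leaving out of a start were chosen after seeing the data. The ratio of *Rmrp* to *Rpph1* in ESCs was 2.21 with each deposited start once, 1.56 with each recovered start once, 1.33 for sequences found once in mm9 and 1.59 for full-length placements. In NPCs it was 2.50 with each deposited start once, 1.56 with each recovered start once and 6.44 for full-length placements. The share at base 108 of *Rpph1* was 71.9% in ESCs and 46.1% in NPCs for full-length placements, and 64.2% and 49.5% with starts within 2 bases added. The median of the 8 subunits changed sign with each start once (-0.046), and was 0.10 scaled by the median of ratios and 0.18 by the reads outside abundant classes. Scaling by the median of ratios also put 15.7% of all genes more than 2-fold higher and 18.7% lower. The other 25 of 51 alternative values stayed within the counting interval, or within 1.5 times for shares of genes. Some of them could not move. Scaling the libraries leaves the ratio of *Rmrp* to *Rpph1* within a library as it is. No *Rmrp* placement was shortened, and no subunit exon is shared, so those settings changed nothing there. Depth limits the subunits, with 15 to 152 reads per library and gene. No paired analysis was possible because each cell type has 1 library, and for the same reason no library could be left out.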
